A study of Mus musculus with 30 samples.

Results

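The 9 homeostatic microglia genes described here are Tmem119, P2ry12, P2ry13, Siglech, Gpr34, Sall1, Olfml3, Sparc and Fcrls. They were taken by name, as a list of genes that resident microglia are known to express, out of 45317 gene symbols in the count tables, and all 9 were among the 11566 genes that passed the filter on low counts. The samples were sorted from C57BL6.CCR2RFP/WT mice aged 12 to 18 weeks, in which a red fluorescent reporter stands at the Ccr2 locus. Every mouse carried a GL261.BpalmGFP glioma, grown for 30 days, whose cells bear a membrane-anchored (palmitoylated) GFP, so that a GFPpos immune cell is one that has taken up tumor material and a GFPneg cell is one without detectable uptake.

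The 8 populations were Ly6Clow and Ly6Chigh blood monocytes (mice 22, 23 and 24), GFPneg and GFPpos glioma monocytes (mice 22, 24 and 26), and GFPneg and GFPpos CCR2high and CCR2low macrophages of the glioma (mice 22, 23, 24 and 26). That made 28 replicates of mouse and population, 6 from blood and 22 from brain. The paper used mice of both sexes. Sex was not part of the fit, and it cannot be told apart from mouse here. Infiltrating cells had been separated from microglia on the sorter by their level of CD45 and CD11b, monocytes by F4/80 with high Ly6C, and macrophages by the CCR2 reporter. No sorted microglia and no animals without a tumor were analysed here, so the levels below have no microglial reference, and blood was not enzymatically dissociated whereas brain was.

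Microglia are the resident macrophages of the brain parenchyma. They arise from yolk sac progenitors and are kept distinct from monocyte-derived macrophages by brain signals, among them TGF-beta. P2ry12 and P2ry13 are purinergic receptors that sense nucleotides, and P2ry12 steers microglial processes toward injury. Gpr34 is a receptor for lysophosphatidylserine, Tmem119 is a membrane protein used as a microglial surface marker, and Siglech and Fcrls are immunoglobulin superfamily receptors. Siglech is also a marker of plasmacytoid dendritic cells. The sort gated on CD11b and F4/80 in brain and on CD115 in blood. Whether such cells remained in the sorted samples was not tested. Sall1 is a zinc finger transcription factor that maintains microglial identity. Olfml3 and Sparc encode secreted matrix proteins, and Sparc is made by endothelial cells, pericytes and fibroblasts as well.

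In GRCm38 with GENCODE vM21, P2ry13 (chr3:59207892-59210882) and P2ry12 (chr3:59216272-59262871) lie beside each other on the minus strand inside Med12l, which is on the plus strand. Fcrls (chr3:87250758-87263738) and Olfml3 (chr3:103722222-103738001) are on the minus strand of the same chromosome. Tmem119 is at chr5:113793729-113800516, Sall1 at chr8:89027235-89044162 and Sparc at chr11:55394500-55423183, all on the minus strand. Siglech is at chr7:55768178-55778925 and Gpr34, inside Cask, at chrX:13632089-13640858, both on the plus strand. The overlap of P2ry12 exons with exons of another gene was 9 bases, or 0.353% of its exon length, and the other members had none. Whether counting used strand is not given in the sources used here.

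The promoters of 3 members are shown because they share a short sequence that the ETS factor PU.1, which all these myeloid cells carry, is known to bind within longer sites. RefSeq (GRCm38.p6) windows from 250 bases before to 50 after the start were found for 7 of the 9 members. In the sequences of P2ry13 (chr3:59210833-59211132, minus strand), Siglech (chr7:55767934-55768233, plus strand) and Fcrls (chr3:87263475-87263774, minus strand), capitals mark GAGGAA on either strand and, in Fcrls, also TGCTGA, a short element that MAF factors are known to bind.
P2ry13: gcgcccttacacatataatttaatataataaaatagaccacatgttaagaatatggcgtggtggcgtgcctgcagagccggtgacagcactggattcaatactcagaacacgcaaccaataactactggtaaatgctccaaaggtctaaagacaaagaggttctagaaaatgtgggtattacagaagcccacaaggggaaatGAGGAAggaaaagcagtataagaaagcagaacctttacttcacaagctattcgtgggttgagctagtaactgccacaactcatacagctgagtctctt
Siglech: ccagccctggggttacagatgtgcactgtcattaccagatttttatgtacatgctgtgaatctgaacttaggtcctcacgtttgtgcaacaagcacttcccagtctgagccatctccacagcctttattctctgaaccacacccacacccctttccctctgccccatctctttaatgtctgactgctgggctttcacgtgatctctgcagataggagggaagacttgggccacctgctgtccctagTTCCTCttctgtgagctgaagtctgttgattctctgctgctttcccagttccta
Fcrls: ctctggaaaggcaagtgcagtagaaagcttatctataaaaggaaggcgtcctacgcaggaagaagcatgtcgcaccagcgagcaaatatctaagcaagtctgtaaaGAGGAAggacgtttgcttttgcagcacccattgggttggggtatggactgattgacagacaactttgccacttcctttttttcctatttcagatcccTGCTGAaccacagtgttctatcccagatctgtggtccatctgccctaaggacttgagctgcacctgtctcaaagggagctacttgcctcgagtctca
GAGGAA was found in 3 of the 7 members' promoters and in 28.3% of 27025 mouse windows, and TGCTGA in 2 of 7 (Sparc and Fcrls) and in 19.1% of windows. The longer PU.1 core GAGGAAGT, which contains GAGGAA, was in 3.28% of windows, the PU.1-IRF composite in 2.79% and the SMAD palindrome GTCTAGAC in 0.211%, each in 0 of the 7. All were searched on both strands. These matches describe the letters of the windows and were not related to the expression values.

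Levels are counts per 1000000 gene counts after TMM scaling (CPM), where 3 counts in a library, taken as the floor of detection, were worth 0.627 to 1.76 CPM in the blood replicates. Depth ranged from 1553616 to 5689644 gene counts per replicate (median 2140229.5). The 9 genes together made up 1748 to 9981 CPM in the 22 brain replicates (median 3469) and 35.75 to 132.1 CPM in the 6 blood replicates (median 64.28). The ranges of brain and blood did not overlap, and in brain the sum was 0.204% of gene counts in GFPneg monocytes and 0.583% in GFPneg CCR2low macrophages, on average. In such bulk samples, fewer cells of a type and less RNA per cell cannot be told apart.

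**Figure D1:**
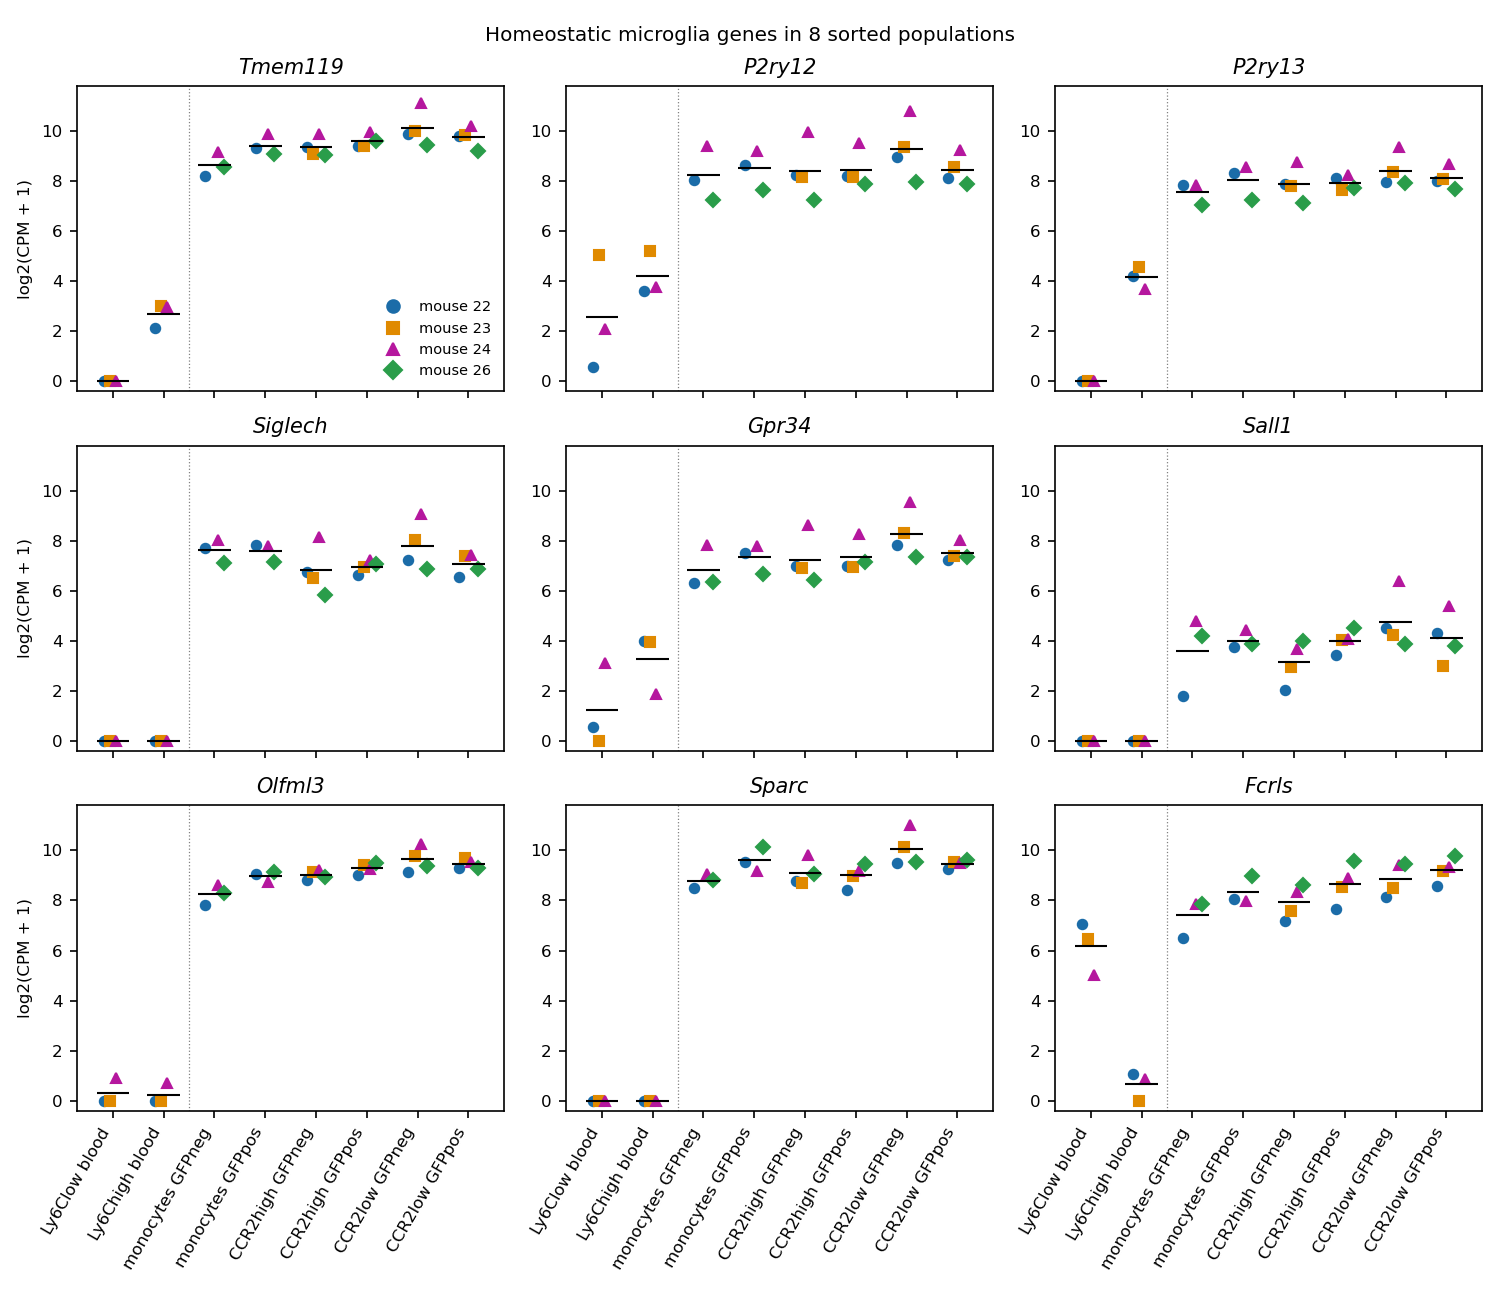
Level of each of the 9 genes, as log2(CPM + 1), in the 28 replicates, 1 panel a gene, with the 8 populations along the x axis and blood left of the dotted line. Points are replicates, with marker and colour by mouse, and bars are means. Siglech, Sall1 and Sparc sit at 0 in all 6 blood replicates, and Fcrls is above 30 CPM in Ly6Clow blood monocytes.

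Transcripts of all 9 genes were counted in every glioma population, while in blood no member was above 35.7 CPM except Fcrls in Ly6Clow monocytes, described further on. Sall1 was at 0 counts in all 6 blood replicates, and it was between 2.51 and 83.25 CPM in the brain replicates. In GFPneg glioma monocytes Sall1 was 2.51, 26.8 and 17.4 CPM in mice 22, 24 and 26. It was thus above the floor in each of these libraries, though low, with a mean of 15.6 ± 12.2 CPM (SD, n = 3).

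Siglech and Sparc were also at 0 counts in all 6 blood replicates. Siglech stood at 206.7, 262.9 and 138.1 CPM in GFPneg glioma monocytes of mice 22, 24 and 26. Sparc was at 361.7, 535.9 and 449.1 CPM in the same libraries. Against the floor in Ly6Chigh blood, this made Siglech at least 149-fold higher (at least 117.7-fold with the least favourable library left out), Sparc at least 331-fold (260.8-fold) and Sall1 at least 11.5-fold (7.35-fold without mouse 24 of the monocytes).

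Olfml3 had 3 counts in 1 replicate of each blood population and 0 in the other four. It was at 226.2, 397.3 and 312.9 CPM in GFPneg glioma monocytes of mice 22, 24 and 26, for a ratio of pooled counts to Ly6Chigh blood of 855 (95% interval 292.1 to 4150, counting error only). Fcrls, with 6 counts over the Ly6Chigh replicates, was at 89.8, 230.7 and 231.6 CPM in the same monocytes, for a ratio of 247 (113 to 674.3). The lowest of these brain values was thus well above every Ly6Chigh value for both genes.

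The other four had clear counts in Ly6Chigh blood. Tmem119 was at 3.37, 7.03 and 6.90 CPM in Ly6Chigh monocytes of mice 22, 23 and 24, and at 290.0, 575.5 and 372.9 CPM in GFPneg glioma monocytes of mice 22, 24 and 26 (log2 fold change 6.12, SE 0.47, adjusted p = 2.73e-09). P2ry13 was at 17.4, 22.8 and 11.9 CPM in Ly6Chigh blood against 230.3, 225.9 and 131.6 CPM (3.51, SE 0.47, adjusted p = 9.51e-06). Both were separated from blood in every replicate.

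P2ry12 was at 11.2, 35.7 and 12.8 CPM in Ly6Chigh blood and at 262.4, 685.3 and 150.3 CPM in GFPneg glioma monocytes (log2 fold change 4.22, SE 0.96, adjusted p = 0.00301). Gpr34 was at 15.2, 14.6 and 2.72 CPM against 78.3, 224.3 and 80.0 CPM (3.63, SE 0.83, adjusted p = 0.00315). Again no blood replicate reached a brain replicate, but the spread within each population was wider than for Tmem119 and P2ry13. P2ry12 is also a platelet receptor, and platelet markers summed to 3.55 to 7.87 CPM in Ly6Chigh blood, where Gp1bb and Treml1 were at 0. The part of platelets in the P2ry12 level was not tested.

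In the fit over all 28 replicates (edgeR quasi-likelihood test, Benjamini-Hochberg adjustment over 11566 genes), all 9 members were higher in GFPneg glioma monocytes than in Ly6Chigh blood monocytes, where 11.1% of all genes tested were called higher. All 9 were also higher in GFPneg CCR2high macrophages (12.7% of all genes) and in GFPneg CCR2low macrophages (14.1%). The median log2 difference of the 9, with genes at 0 in blood set at their bounds, was 6.12, 6.64 and 7.62 in monocytes, CCR2high and CCR2low macrophages, beside 0.123, 0.15 and 0.173 over all genes. The highest adjusted p among the members was 0.00315, 0.00125 and 0.000257. These comparisons share the same blood libraries, and brain and blood also differed in dissociation.

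Some markers of other cells were called between glioma and blood as well. Of the genes tested on each list, 5 of 6 astrocyte markers, 2 of 4 oligodendrocyte markers (with 1 lower), 3 of 7 endothelial markers, 1 of 3 platelet markers and 0 of 8 pericyte and fibroblast markers were higher in GFPneg glioma monocytes than in Ly6Chigh blood. In the same comparison 7 of 10 plasmacytoid dendritic cell markers and 3 of 10 border-associated macrophage markers were higher. Of all genes tested, 11.1% were called higher and 2.68% lower there. The oligodendrocyte sum was nonetheless lower in GFPneg glioma monocytes (93.56 to 123.4 CPM) than in Ly6Chigh blood (311.6 to 620.8 CPM), where Mbp made up nearly all of it (421.1 ± 172.7 CPM, SD, n = 3). The 7 neuron markers were below the filter, with a summed level of at most 5.66 CPM. The part of these cells in the members' levels was not tested. Nor was that of resident microglia carried through the CD45 and CD11b gate, which cannot be told apart here from expression by infiltrating cells.

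Other cell types are known to express Siglech and Sparc, and their markers were summed beside them. Plasmacytoid dendritic cell markers summed to 747.7 to 936.1 CPM in Ly6Chigh blood, with Klk1 and Cox6a2 at 0, while Siglech itself was at 0 there. In GFPneg glioma monocytes the same list summed to 1661 to 2642 CPM with no marker at 0. Endothelial markers summed to 88.3 to 216.8 CPM in GFPneg glioma monocytes and to 17.4 to 46.8 CPM in Ly6Chigh blood, with 6 of 8 at 0 in blood, Cldn5, Kdr, Cdh5 and Tek among them. Pericyte and fibroblast markers summed to 0.535 to 143.9 CPM and to 1.04 to 7.61 CPM, with Rgs5, Col1a1, Col1a2, Col3a1, Dcn and Lum at 0 in blood. The highest Sparc value, 2078 CPM in GFPneg CCR2low macrophages of mouse 24, was in a replicate with 0 CPM of pericyte and fibroblast markers and 18.04 CPM of endothelial markers. In mouse 26, which had the highest pericyte and fibroblast sums of all mice (143.9 to 599.6 CPM), Sparc was the highest of the mice in 3 of 6 brain populations, at 1131 CPM in GFPpos monocytes for example. The part of these cells in the Siglech and Sparc levels was not tested.

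The second question was how the genes ranked across the glioma populations. Per kilobase of exon, Tmem119 was the highest and Sall1 the lowest of the 9 in each of the 6 brain populations. In GFPneg monocytes the mean level per kilobase was 178.3 CPM for Tmem119, 143.8 for P2ry12, 118.5 for Sparc and 2.96 for Sall1. In GFPneg CCR2low macrophages it was 526.4, 311.0, 307.9 and 6.49. P2ry12 and Sparc were next to each other in both orders and did not differ beyond their spread.

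Among GFPneg cells, every member had its highest mean in CCR2low macrophages, though within mice Siglech was above monocytes in 1 of 3 (ratios 0.725 to 2.06) and Sall1 in 2 of 3. The summed level of the 9 was 1748, 3165 and 1884 CPM in monocytes of mice 22, 24 and 26. It was 2472, 2447, 4892 and 2390 CPM in CCR2high macrophages of mice 22, 23, 24 and 26, and 3663, 4973, 9981 and 3607 CPM in CCR2low macrophages. CCR2low was the highest of the GFPneg populations in each mouse, and mouse 24 was the highest in each of the 3 populations.

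**Figure D2:**
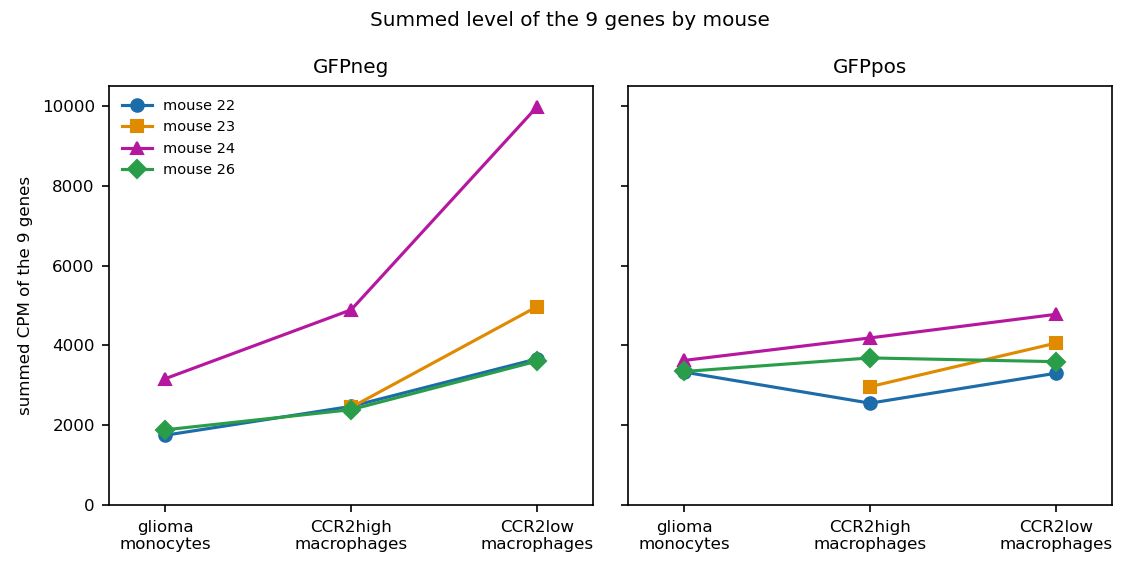
Summed level of the 9 genes in CPM (y axis) in glioma monocytes, CCR2high and CCR2low macrophages (x axis), with 1 line a mouse, for GFPneg cells on the left and GFPpos cells on the right. In GFPneg cells each line ends highest in CCR2low macrophages, up to 9981 CPM in mouse 24, while the GFPpos lines lie between 2552 and 4779 CPM.

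Tmem119 and Olfml3 passed the test between GFPneg CCR2low macrophages and GFPneg glioma monocytes. Tmem119 was at 945.3, 1031, 2198 and 699.8 CPM in CCR2low macrophages of mice 22, 23, 24 and 26, each above the 3 monocyte values of 290.0 to 575.5 CPM (log2 fold change 1.56, SE 0.36, adjusted p = 0.0272). Olfml3 was at 567.1, 881.4, 1234 and 672.4 CPM, above the 226.2 to 397.3 CPM of monocytes (1.43, SE 0.32, adjusted p = 0.0227). In means, Tmem119 went from 412.8 ± 146.9 (SD, n = 3) to 1219 ± 668 CPM (n = 4) and Olfml3 from 312.1 ± 85.5 to 838.6 ± 293.9 CPM.

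Of all genes, 0.147% were called higher in this comparison, beside 2 of the 9 members. The other seven were above 0 in the fit but did not pass. Sparc was at 722.3, 1118, 2078 and 747.3 CPM in CCR2low macrophages of mice 22, 23, 24 and 26 (log2 fold change 1.38, 95% interval 0.64 to 2.12, adjusted p = 0.0627). Fcrls was at 279.7, 364.0, 673.9 and 707.2 CPM (1.46, 0.43 to 2.49, adjusted p = 0.228). Gpr34 and P2ry12 had wider intervals, 0.09 to 2.96 and −0.52 to 2.74, around values of 1.53 and 1.11. P2ry13 was 0.90 higher on the log2 scale (adjusted p = 0.493), Sall1 1.13 (0.874) and Siglech 0.40 (adjusted p = 1).

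The replicates of Tmem119, P2ry13, Olfml3, Sparc and Fcrls did not overlap between these populations, where 6.44% of all genes were wholly higher in CCR2low macrophages. The median of the 9 differences was 1.38 on the log2 scale, beside 0.042 over all genes. Within mice 22, 24 and 26, 24 of 27 member and mouse pairs were higher in CCR2low macrophages (49.1% of such pairs over all genes). Members were read in the same libraries, so such pairs are not independent, here and below. With mouse as a block, Tmem119 (adjusted p = 0.000234), Olfml3 (0.00445), Sparc (0.0193) and Fcrls (0.0356) passed.

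These calls depended on the replicates and the scaling. Without the CCR2low replicate of mouse 24, the highest for both genes, Tmem119 was 1.12 higher on the log2 scale (adjusted p = 0.141) and Olfml3 1.18 (adjusted p = 0.104). In that setting 0 members were called, as was also the case without monocyte mouse 22 or monocyte mouse 26 and with spike-in scaling. Tmem119 was lost and 1 member called with the first library of each sample only (adjusted p = 0.0555) and with the compared populations only (adjusted p = 0.0945).

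**Figure D3:**
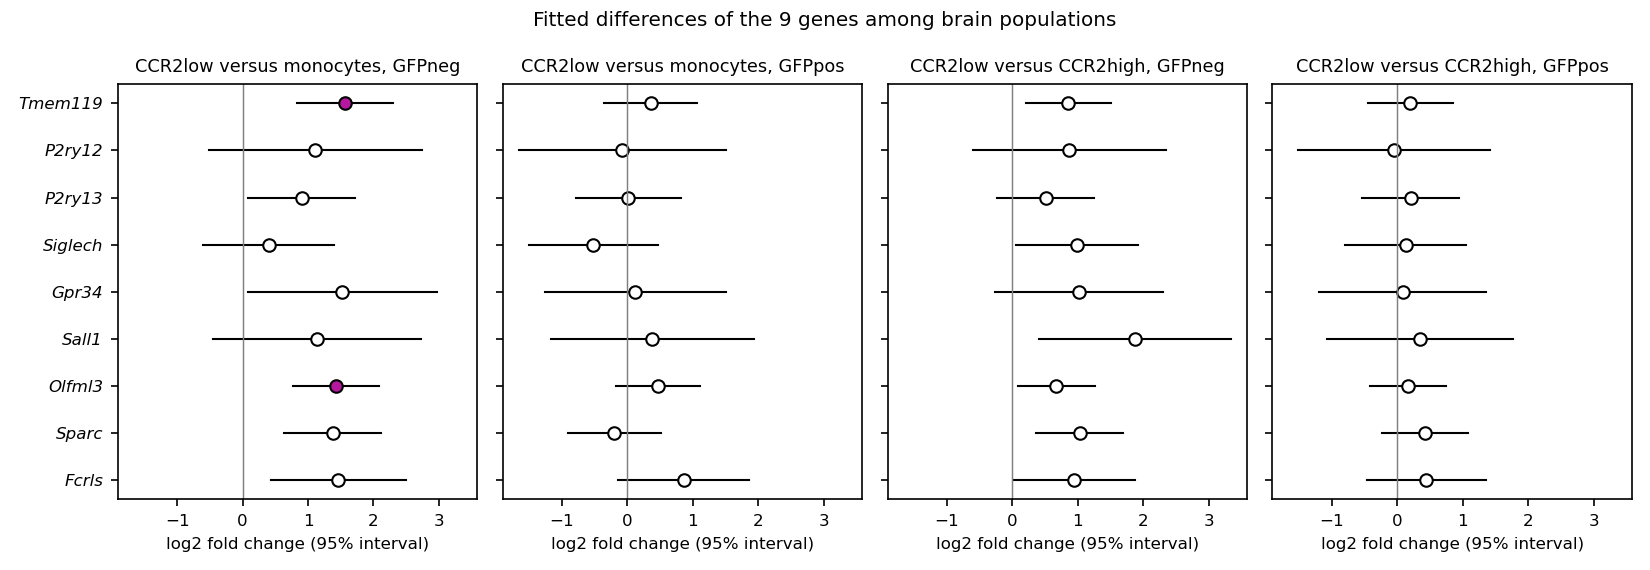
Log2 fold change (x axis) of each of the 9 genes (y axis) with its 95% interval, for CCR2low macrophages against glioma monocytes and against CCR2high macrophages, in GFPneg and in GFPpos cells. Filled points passed at an adjusted p under 0.05, which were Tmem119 and Olfml3 in GFPneg cells against monocytes. Points of the GFPneg panels lie between 0.40 and 1.87.

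Genes of monocyte-derived cells went the other way in the same comparison. Of 16 on that list, 0 were higher and 10 lower in GFPneg CCR2low macrophages than in GFPneg monocytes, where 1.06% of all genes were called lower, Ly6c2 among them (log2 fold change −4.76). Ccr2 itself was at 781 ± 183.5 CPM in monocytes, 243.2 ± 80.4 in CCR2high and 72.2 ± 34.2 CPM in CCR2low macrophages, and Ly6C and the CCR2 reporter were used in the sort, so this part of the list follows the gate. None of the 9 genes was used in the sort.

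Between GFPneg CCR2low and CCR2high macrophages no member was called (0% of all genes, 0 members with DESeq2, and 6 members at an unadjusted p under 0.05, as were 2.39% of all genes). The fitted differences were nonetheless above 0 for all 9, from 0.51 for P2ry13 to 1.87 for Sall1, with a median of 0.94 beside 0.009 over all genes. Sparc was 1.03 higher (95% interval 0.36 to 1.70) and Tmem119 0.86 higher (0.20 to 1.51), both with an adjusted p of 1. Within mice, 35 of 36 member and mouse pairs were higher in CCR2low macrophages (49.2% of such pairs over all genes), with Sall1 in mouse 26 as the exception. These pairs come from only 4 mice. No member was wholly separated between the populations, where 1.63% of all genes were.

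Between GFPneg CCR2high macrophages and GFPneg monocytes, 0 members were called by edgeR or DESeq2 (0.182% of all genes), and 1 had an unadjusted p under 0.05 (5.38% of all genes). This was Olfml3, at 454.7, 566.3, 596.5 and 485.1 CPM in CCR2high macrophages of mice 22, 23, 24 and 26 (log2 fold change 0.75, 95% interval 0.11 to 1.40, adjusted p = 0.754). Siglech and Sall1 were below 0 in the fit, at −0.59 and −0.74. Siglech was at 107.9, 89.8, 286.5 and 56.5 CPM in CCR2high macrophages, with 3 mice below every monocyte value and mouse 24 above them.

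In GFPpos cells the 3 populations were closer together. The summed level was 3331, 3623 and 3346 CPM in monocytes of mice 22, 24 and 26, 2552, 2966, 4188 and 3686 CPM in CCR2high macrophages of mice 22, 23, 24 and 26, and 3303, 4058, 4779 and 3592 CPM in CCR2low macrophages. The ranges of all 3 overlapped. GFPpos monocytes of mice 22 and 24 had 3.59% and 5.16% of their counts on spike-in RNAs, beside at most 1.17% in the other brain replicates. No member was called between CCR2high macrophages and monocytes (0.0173% of all genes), between CCR2low macrophages and monocytes (0.164%) or between CCR2low and CCR2high macrophages (0%). DESeq2 called 0 in each, and 0 members had an unadjusted p under 0.05 in any, beside 5.82%, 6.62% and 1.48% of all genes.

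Intervals in GFPpos cells do not exclude modest differences. For CCR2low macrophages against monocytes, Tmem119 was at 0.35 (95% interval −0.35 to 1.06), Sparc at −0.21 (−0.92 to 0.51) and Fcrls at 0.86 (−0.15 to 1.86) on the log2 scale. Only Olfml3 was wholly separated, with 622.2 to 833.6 CPM in CCR2low macrophages over 431.8 to 557.4 CPM in monocytes, beside 3.61% of all genes. The median over the 9 was 0.12, beside −0.034 over all genes, and 18 of 27 within-mouse pairs were higher in CCR2low macrophages (49.4% over all genes).

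Whether the CCR2low difference itself depended on GFP was tested as an interaction over 28 replicates. The difference was smaller in GFPpos than in GFPneg cells for all 9 members in the fit, but 0 were called (0% of all genes, 0 with DESeq2, and 3 at an unadjusted p under 0.05, as were 3.41% of all genes). These were Sparc (−1.58, SE 0.49, unadjusted p = 0.00384 in the edgeR test), Tmem119 (−1.21, SE 0.48, 0.0196) and Olfml3 (−0.95, SE 0.44, 0.0383), each with an adjusted p of 1. Scaling to spike-in RNAs in place of TMM moved the median of all genes from −0.047 to 1.706 in this comparison and turned the sign of all 9, so these values hold relative to the bulk of genes.

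The direct comparisons of GFPpos with GFPneg cells gave 0 members called in monocytes (0% of all genes), CCR2high macrophages (0%) and CCR2low macrophages (0%), with edgeR and with DESeq2. In monocytes, 3 members and 6.39% of all genes had an unadjusted p under 0.05. Sparc was at 745.9, 575.5 and 1131 CPM in GFPpos monocytes of mice 22, 24 and 26, over 361.7 to 535.9 CPM in GFPneg (log2 fold change 0.86, adjusted p = 0.734). Tmem119 was at 631.5, 935.1 and 541.3 CPM (0.77, adjusted p = 0.759) and Olfml3 at 538.9, 431.8 and 557.4 CPM (0.71, adjusted p = 0.759). GFPpos and GFPneg values of Sparc, Olfml3 and Fcrls did not overlap, whereas those of Tmem119 did, and 6.66% of all genes were wholly higher in GFPpos monocytes.

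In CCR2low macrophages the fitted values were below 0 for 8 of the 9 members, and 2 had an unadjusted p under 0.05, as had 1.59% of all genes. Siglech was at 93.2, 166.6, 171.9 and 117.7 CPM in GFPpos cells of mice 22, 23, 24 and 26, and at 149.7, 260.5, 540.2 and 116.6 CPM in GFPneg cells (log2 fold change −0.96, adjusted p = 1). Sparc was at 603.5, 734.1, 719.6 and 779.4 CPM in GFPpos cells (−0.72, adjusted p = 1). Siglech was close in both in mouse 26 and higher in GFPneg cells in the other three mice. Of 36 member and mouse pairs, 7 were higher in GFPpos CCR2low macrophages, where 50.2% of such pairs over all genes were. In CCR2high macrophages the fitted values were below 0 for 5 of the 9 members (median −0.055), and 0 members and 0.597% of all genes had an unadjusted p under 0.05.

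Fcrls stood apart from the other members in blood. It was at 131.1, 86.4 and 31.7 CPM in Ly6Clow monocytes of mice 22, 23 and 24, from 278, 224 and 107 counts, and at 1.12, 0 and 0.836 CPM in Ly6Chigh monocytes, from 2, 0 and 4 counts. The ranges lay far apart, and Fcrls was lower in Ly6Chigh monocytes by −6.78 on the log2 scale (SE 0.78, adjusted p = 1.21e-05, edgeR). The ratio of pooled counts, Ly6Clow over Ly6Chigh, was 104 (95% interval 47.4 to 283.8). Ly6Clow Fcrls levels reached into the range of GFPneg glioma monocytes, whose lowest value was 89.8 CPM.

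Tmem119 and P2ry13 had the opposite order in blood. Tmem119 was at 0 counts in all 3 Ly6Clow replicates and at 3.37 to 7.03 CPM in Ly6Chigh, at least 5-fold higher (4.45 to 6.04 with 1 library left out, adjusted p = 0.00011). P2ry13 was at 0 counts in Ly6Clow and at 11.9 to 22.8 CPM in Ly6Chigh, at least 15.1-fold higher (12.7 to 17.5, adjusted p = 1.21e-05). With Fcrls, 3 of 9 members were called between the blood populations, beside 5.61% of all genes in either direction. With the 2 blood populations fitted alone, 0 members and 0 of all genes were called (P2ry13 adjusted p = 0.325, Fcrls 0.161), and with spike-in scaling Fcrls was not called (0.0984).

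P2ry12 and Gpr34 were uneven in blood. P2ry12 was at 0.472, 32 and 3.26 CPM in Ly6Clow monocytes of mice 22, 23 and 24 (Ly6Chigh over Ly6Clow 0.71, 95% interval −1.15 to 2.58, adjusted p = 0.699). Gpr34 was at 0.472, 0 and 7.70 CPM there (1.76, −0.06 to 3.59, adjusted p = 0.245). Mouse 23 alone gave the high P2ry12 value and mouse 24 the high Gpr34 value. Platelet markers in the same 3 Ly6Clow replicates summed to 172.7, 0 and 17.5 CPM, in the order of mice 22, 23 and 24, and their part in the P2ry12 level was not tested. The mouse 23 library stood apart, with 13.27% of its counts on spike-in RNAs and 6475 genes with at least 5 reads, against 9512 and 10882 genes in mice 22 and 24. Border-associated macrophage markers summed to 118.4 to 172.0 CPM in Ly6Clow and 52.8 to 122.9 CPM in Ly6Chigh monocytes, and their part in the Fcrls level was not tested.

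In brain, some of the members were highest in the same mouse. Mouse 24 was the highest mouse for Tmem119, P2ry12 and Gpr34 in 6 of 6 brain populations and for P2ry13 and Siglech in 5 of 6. It was the highest for Sall1 in 4, for Olfml3 and Sparc in 3 and for Fcrls in 0 of 6. P2ry12 in GFPneg CCR2low macrophages was at 498.8, 654.2, 1767 and 246.8 CPM in mice 22, 23, 24 and 26. Gpr34 followed with 228.5, 319.4, 758.1 and 164.0 CPM, and Sall1 with 22.02, 17.7, 83.25 and 13.7 CPM. In all 3, mouse 24 was far above the others and mouse 26 was the lowest.

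Over the 22 brain replicates, Pearson's r between pairs of members on the log2 CPM scale ran from 0.038 to 0.946, with a median of 0.619 over 36 pairs and 25 pairs above 0.5. As deviations from population means, the 36 pairs ran from −0.185 to 0.965 (median 0.57), with 2 pairs below 0. The replicates share mice and sorts, so these values are descriptions. P2ry12 was closest to Gpr34 (0.946) and to its neighbour P2ry13 (0.897). Fcrls was the least like the rest, with r = 0.117 to P2ry12, 0.148 to P2ry13 and 0.038 to Siglech, or −0.033, −0.185 and 0.098 as deviations from population means.

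Fcrls was the highest in mouse 26 in 6 of 6 brain populations, the mouse in which P2ry12 was the lowest in 6 of 6. Its values in GFPpos CCR2high macrophages were 201.3, 373.3, 480.2 and 757.0 CPM in mice 22, 23, 24 and 26. The ratio of Fcrls to P2ry12 was 0.342 to 1.36 over the 6 brain replicates of mouse 22 (median 0.615), 0.556 to 1.51 over the 4 of mouse 23 (0.977), 0.322 to 1.05 over the 6 of mouse 24 (0.401) and 1.54 to 3.73 over the 6 of mouse 26 (2.75). All replicates of mouse 26 were above every other replicate. Fcrls was also higher in GFPpos than GFPneg cells in 3 of 3 mice in monocytes, 4 of 4 in CCR2high and 3 of 4 in CCR2low macrophages, though it was not called in any.

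**Figure D4:**
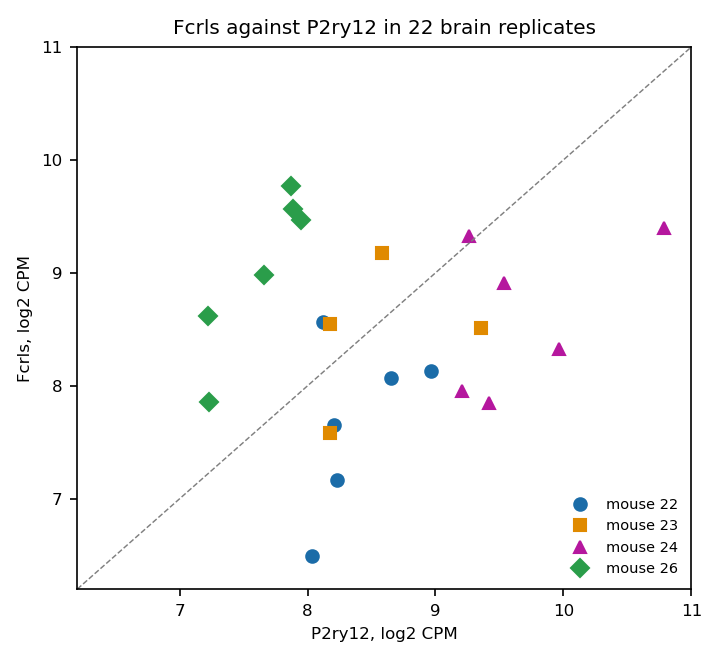
Level of Fcrls (y axis) against P2ry12 (x axis), both as log2 CPM, in the 22 brain replicates, with marker and colour by mouse and the dashed line where the levels are equal. The 6 replicates of mouse 26 lie above the line, with ratios of 1.54 to 3.73, and the 6 of mouse 24 lie at ratios of 0.322 to 1.05.

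Markers of other cells moved with mouse as well. Mouse 26 had the highest sum of pericyte and fibroblast markers in 6 of 6 brain populations (143.9 to 599.6 CPM, against 0 to 47.7 CPM in mouse 24), of platelet markers in 6 of 6 (142.6 to 254.8 CPM) and of border-associated macrophage markers in 5 of 6 (752.6 to 2105 CPM). Mouse 24 had the highest sum of plasmacytoid dendritic cell markers in 4 of 6 populations, with 1630 to 2642 CPM over the 6. Their part in the mouse pattern of Fcrls, P2ry12 and Siglech was not tested.

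The genes whose levels followed the mean of the 9 most closely over the 22 brain replicates were Adgrg1 (r = 0.945), an adhesion receptor, and Slc2a5 (r = 0.897), the fructose transporter, both from the list of other microglia-enriched genes. Siglecf (0.875), Gm38140 (0.831), Cd79b (0.826), Ltc4s (0.807), Lrrc3 (0.806), Rasgrp3 (0.792), Cd34 (0.785) and Phyhd1 (0.782) came next. Adgrg1 was at 32.1 to 339.5 CPM in brain and at most 2.37 CPM in blood, and Slc2a5 at 8.01 to 254.8 CPM in brain and 0 in blood. Of the members, Gpr34 (r = 0.945) and Tmem119 (0.922) were closest to the mean of which they are part, and Fcrls (0.586) the least close.

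Most other microglia-enriched genes were also higher in glioma than in blood. Of 26 listed, 25 were tested, and 16 were higher than in Ly6Chigh blood in GFPneg monocytes, 19 in CCR2high and 19 in CCR2low macrophages, with 0 lower. The shares of all genes called higher were 11.1%, 12.7% and 14.1%. Slco2b1, an organic anion transporter, was at 0 in Ly6Chigh blood and at 103.8 ± 54.8 CPM in GFPneg monocytes (SD, n = 3), and Serpine2, a secreted protease inhibitor, at 0 and 64.0 ± 15.1 CPM. Cx3cr1, the fractalkine receptor, was not called, at 697.3 ± 174.1 CPM in Ly6Chigh blood and 404.0 ± 56.6 CPM in GFPneg monocytes (−0.79, adjusted p = 0.171). Between GFPneg CCR2low macrophages and monocytes 0 of the 25 were called, with a median difference of 1.29 beside 1.38 for the 9 members. The shares over all genes were 0.147% higher and 1.06% lower. Crybb1, a crystallin, was at 1.86 (adjusted p = 0.0993) and Serpine2 at 1.93 (adjusted p = 0.132). In blood, 1 was higher (Crybb1) and 5 lower in Ly6Chigh than in Ly6Clow monocytes, Plxdc2 and C1qa among the latter. There, 5.61% of all genes were called in either direction.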

How the data were processed

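RNA-seq libraries were made from small amounts of RNA by template switching. STAR alignments to mm10 were stripped of duplicate reads by the authors with Picard (1.8.4 in the submitters' notes), and htseq-count in its intersection-strict mode gave reads per gene. The deposited values are raw read counts per gene. The strand setting is not given in the sources used here.

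Of 30 libraries, 1 was left out under the study's quality rule (at least 6000 genes with at least 5 reads), and 2 libraries of 1 sample were summed. Rows that name no gene were left out; reads without a feature made up 6.28 to 17.4% and ambiguous reads 1.58 to 1.9%. The 92 spike-in RNAs entered only the spike-in scaling. Counts were filtered (filterByExpr), scaled (TMM) and tested with edgeR 4.0.16 (R 4.3.3) by the quasi-likelihood F test (glmQLFTest) in 1 fit over 8 populations, with Benjamini-Hochberg adjustment over all genes and a threshold of 0.05, two-sided. The 9 members were named in full, other genes as list members with the largest change or closest correlation. Members and lists were chosen with earlier results of these data known. Intervals of ratios cover counting error only.

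Replicate numbers are mice. Same-mouse deviations correlated at a median r of 0.136 (86 pairs, −0.0971 to 0.674), different-mouse ones at −0.0303 (256 pairs). Alternatives were DESeq2 1.42.0, its size factors, spike-in scaling, 2 other filters, the mouse block, the compared populations alone, the first library alone, and leaving out each replicate.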

Additional observations from a re-analysis of the deposited data

Results flagged for a closer look

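In 5 of 36 gene and population groups of 4 replicates, 1 replicate lay beyond the 95% limit of Dixon's gap ratio, and all 5 were mouse 24. Chance passes this limit in about 1 group in 20 where groups are independent. These groups share mice and libraries, so they are not independent, and the share over all genes was not taken. For Gpr34, mouse 24 was at 394.2 CPM in GFPneg CCR2high macrophages, over 84.4 to 125.5 CPM in the other three (gap over range 0.867). It was at 308.5 CPM in GFPpos CCR2high macrophages, over 121.5 to 141.3 CPM (0.894), and at 259.9 CPM in GFPpos CCR2low macrophages, over 149.0 to 166.6 CPM (0.841). For P2ry12 in GFPpos CCR2high macrophages it was at 744.1 CPM, over 236.6 to 294.8 CPM (0.885), and for Sall1 in GFPneg CCR2low macrophages at 83.25 CPM, over 13.7 to 22.02 CPM (0.881).

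The ratio of GFPpos to GFPneg Tmem119 was above 1 in every mouse in glioma monocytes (lowest 1.451) and below 1 in every mouse in CCR2low macrophages (0.535 to 0.957). The test of this difference gave −1.21 on the log2 scale with an adjusted p of 1 (edgeR). In CCR2high macrophages the Tmem119 ratio was also above 1 in every mouse (lowest 1.034), and its difference from CCR2low macrophages was not tested. Sall1 was above 1 in every mouse in CCR2high macrophages (1.333 to 3.14) and below 1 in CCR2low macrophages (0.395 to 0.954), a difference that was not tested.

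The library of Ly6Clow blood monocytes of mouse 23 that failed the quality rule held 86 counts of Fcrls (78.8 CPM without TMM), next to 224 counts (83.3 CPM without TMM) in the library used. It held 0 counts of P2ry12, against 83 in the library used, and 0 of the other seven members.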

How the results depend on the processing

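The 32 called member differences kept their sign in all 466 values under the alternatives, and 16 of these values no longer passed. For GFPneg CCR2low macrophages against GFPneg glioma monocytes, where 2 members were called, the number was 0 with spike-in scaling, 4 with the replicate block of mouse, 1 with the first library of each sample only, 1 with the compared populations only, and 0 to 3 with a replicate left out; for the blood populations (3 called) it was 0 with the compared populations only, where 4 members were tested, and 3 to 4 with a replicate left out. The replicate block changed no other call. DESeq2 kept all 32 calls and passed 1 of the 91 differences not called. Against Ly6Chigh blood the number stayed at 8 or 9, the 8 with spike-in scaling in monocytes (Gpr34, adjusted p = 0.0741, edgeR), and spike-in scaling left 2 in blood, without Fcrls (0.0984). Of 1442 values of the 91 differences not called, 6 passed and 110 changed sign, 64 with a replicate left out and 30 with spike-in scaling, which moved the all-gene median from 0.069 to −1.37 for GFPpos against GFPneg monocytes, from −0.034 to 1.704 for GFPpos CCR2low macrophages against GFPpos monocytes, and from 0.023 to 1.694 in blood, and which moved 39 of 72 mean levels. The cause was not tested. At the depth of these libraries Sall1 was low, at 2.51 CPM in 1 monocyte replicate.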

Other observations

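TGF-beta signalling is known to maintain the microglial program, and of 11 of its genes found in the counts, 10 were tested. In GFPneg monocytes 2 of the 10 were higher than in Ly6Chigh blood, beside 11.1% of all genes, namely Ski (49.3 ± 7.71 against 9.34 ± 5.10 CPM, SD, n = 3 each) and Skil (246.2 ± 132.9 against 50.6 ± 28.3 CPM), both of which encode corepressors of SMAD proteins. In CCR2high macrophages 1 was higher (Ski) and 1 lower (Nrros), beside 12.7% and 5.14% of all genes. In CCR2low macrophages, where these shares were 14.1% and 6.09%, Ski and the inhibitory SMAD gene Smad7 were higher, and Nrros, whose product holds latent TGF-beta at the cell surface, was lower (461.7 ± 104.8 against 1122 ± 190.1 CPM). None of the 10 was called between glioma populations.

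GFPpos glioma monocytes of mouse 22 had 2 libraries, which were summed. Per 1000000 gene counts, they gave 321.8 and 637.6 for Tmem119, 293.9 and 536.1 for Olfml3, 120.8 and 278.4 for Fcrls, but 345.6 and 346.5 for P2ry12 and 625.2 and 650.3 for Sparc. Sall1 had 0 counts in the first and 62 in the second. Spike-in RNAs took 8.68% of counts in the first and 1.29% in the second, with 6969 and 11777 genes of at least 5 reads.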
